A study of Drosophila melanogaster with 2 samples.

Results

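The dosage compensation complex of the fruit fly Drosophila melanogaster was described here through 8 genes: the protein genes msl-1, msl-2, msl-3, mle and mof, the noncoding RNA genes roX1 and roX2, and Clamp. They were taken by name, together with every probe set that the platform annotation assigns to that gene alone. Of the 8 genes, 6 had such a probe set, 7 probe sets in all, among 11983 genes measured in the series. The RNA genes roX1 and roX2 had none and were not measured. The samples were 2 Affymetrix Drosophila Genome 2.0 arrays of S2 cells, an established embryo-derived line that resembles macrophage-like blood cells. The arrays form 1 group of cells grown at 25 °C and given dsRNA (double-stranded RNA) against GFP, a jellyfish protein with no gene in the fly, for 8 days in rounds of 4 days each. No strain, genotype or other agent is given beyond the culture medium with serum and antibiotics. No cells without the dsRNA were analysed here, so no effect of it can be measured. Separate cultures are not stated for the duplicates, and the spread may thus be technical.

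In flies, males carry a single X chromosome and females a pair, and the male X is transcribed more strongly to make up the difference. The MSL complex does this in males: it assembles on roX RNA, binds along the X at sites rich in GA repeats, and acetylates a histone tail there. MSL-2 protein is made in males alone, because the female protein Sex-lethal blocks both the splicing and the translation of msl-2 RNA. S2 cells are male in this respect and have long served to study the complex.

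Signals are the deposited linear intensities, in arbitrary units, and all levels are mean ± SD with n = 2. The background limit of an array was the 95th percentile of its signals for 112 chemosensory receptor genes (odorant or gustatory, 125 probe sets), which blood-like cells are not expected to use. It lay at 146 on replicate 1 and 136 on replicate 2. A gene counted as detected when at least 1 probe set exceeded the limit on each array, which held for 5886 of 11983 genes (49.1%). Of the 10 markers of macrophage-like blood cells 9 were detected, among them Hml (4509 ± 520), Pxn (8028 ± 492) and srp (8647 ± 142), and NimC1 was not (112 ± 21.7). A second probe set of Pxn disagreed, at 139 and 110 (125 ± 20.4), and was not detected. Of 17 measured markers of other cells 2 were detected, elav of neurons (196 ± 18.2) and mia of the testis (612 ± 79.1). The others included nSyb (17.5 ± 8.62) and brp (73.4 ± 6.01) of neurons, Mlc2 (21.1 ± 0.535), up (5.40 ± 0.830) and Act88F (80.4 ± 34.8) of muscle, dj (9.59 ± 7.18) and can (25.5 ± 2.23) of the testis, and the yolk protein genes Yp1 (27.7 ± 23.7), Yp2 (45.0 ± 21.3) and Yp3 (5.65 ± 0.834).

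All 6 measured genes of the complex were detected, and each of their 7 probe sets was above the limit on both arrays, where 49.1% of all genes were detected. The genes for the proteins that form the core of the complex, the helicase, the acetyltransferase and the DNA-binding adaptor thus all gave RNA signals above background in these cells. Probe sets differ in how strongly they respond, so the order of these genes by signal is not an order by transcript number.

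The gene msl-2, on chromosome arm 2L, encodes the RING-finger subunit whose presence decides whether the complex forms. Its probe set (1635840_s_at) read 1312 on replicate 1 and 1229 on replicate 2, or 1271 ± 58.8. These signals were 8.99 and 9.06 times the limits. The suffix _s marks probes that the array's design found in more than a single transcript, which can be of different genes. The annotation gave msl-2 alone, and whether another transcript adds to the signal was not tested.

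The gene msl-1, also on 2L, encodes the scaffold that holds MSL-2, MSL-3 and MOF together. Its probe set (1639438_at) read 549 and 467, or 508 ± 58.2, which was 3.76 and 3.44 times the limits. The gene msl-3, on 3L, encodes a chromodomain protein that helps the complex spread along active genes. It was measured by 2 probe sets, which read 450 and 437 (1627738_a_at, 443 ± 9.14) and 833 and 683 (1630477_at, 758 ± 106). The msl-3 probe sets lay at 3.08 to 5.70 times the limits. Both detected msl-3, and their signals did not overlap.

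The gene mle, on 2R, encodes the RNA helicase that remodels roX RNA for assembly. Its probe set (1629507_a_at) read 1021 and 1101, or 1061 ± 56.8, at 6.99 and 8.11 times the limits. The gene mof, the X-linked member among those measured, encodes the acetyltransferase, and its product also works in the NSL complex at gene promoters in both sexes. Its probe set (1633429_at) read 1181 and 1560, or 1370 ± 268. On replicate 2 that was 11.5 times the limit and on replicate 1 it was 8.09 times.

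The gene Clamp, on 2L, encodes a zinc-finger protein that binds GA repeats and tethers the complex to the X. Its probe set (1629663_at) read 1537 and 1926, or 1732 ± 275, at 10.5 and 14.2 times the limits. Clamp was above all 125 receptor probe sets on both arrays. On replicate 1 each of the other probe sets of the complex was above 124 of them, and on replicate 2 mof was above all 125. The exception was the probe set of Gr61a, a gustatory receptor gene, which read 1523 and 1458. Without it the highest receptor signals were 186 on replicate 1 and 308 on replicate 2, both for Gr94a, and all 7 probe sets of the complex were above these values. These receptor genes were named after their values were seen.

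**Figure D1:**
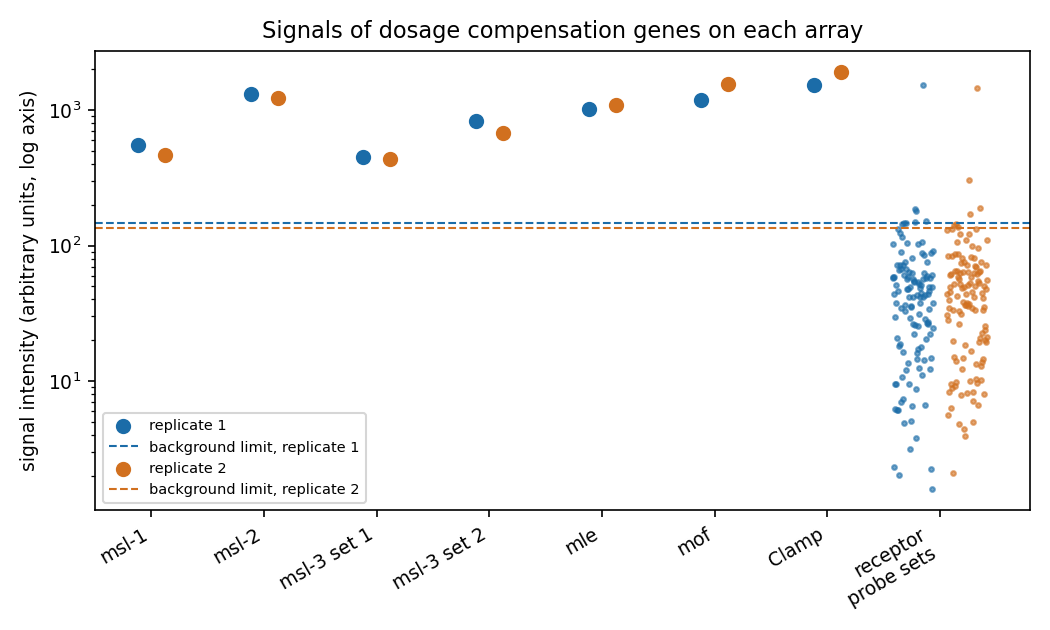
Signal intensity (log axis, arbitrary units) of each probe set of the complex on replicate 1 (blue) and replicate 2 (orange), with the 125 receptor probe sets as small points at the right and the background limits as dashed lines. All 7 probe sets of the complex lie above both limits, from 437 for the first msl-3 set on replicate 2 to 1926 for Clamp on replicate 2, and the lone receptor point among them is Gr61a.

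The RNA genes roX1 and roX2 lie on the X and, as the RNA part of the complex, act redundantly in males. The annotation used here assigns no probe set to them, so no level is given. It leaves 4720 probe sets other than controls without a gene, and whether any of these measures roX1 or roX2 was not tested. In the RefSeq gene table of release 6 the span of roX1 overlaps the protein-coding gene ec (echinus), which was detected at 1656 and 1415. Among the measured genes, the span of msl-3 overlaps form3, which was not detected (30.5 and 14.0), and that of Clamp overlaps CG42748, which was detected at 2212 and 1690. Whether RNA of an overlapping neighbour adds to a probe set of the complex was not tested.

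The duplicates were then set against each other, 1 array each, which allows no test. Differences are log2 of replicate 2 over replicate 1, and over the 7262 detected probe sets of the arrays their SD was 0.23 and their median -0.0023. The 3 msl genes were lower on replicate 2, by a log2 difference of -0.23 for msl-1, -0.09 for msl-2, and -0.04 and -0.29 for the msl-3 probe sets. The other genes were higher there, by 0.11 for mle, 0.40 for mof and 0.33 for Clamp. Thus 3 of 7 probe sets were higher on replicate 2, where 49.5% of detected probe sets were, and 4 were lower, as 50.5% were.

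The difference exceeded 1 SD in 4 of the 7 probe sets (msl-1, the brighter msl-3 set, mof and Clamp), and in 25.1% of all detected probe sets. That of mof was 1.32-fold and the widest of the 7, and 7.12% of detected probe sets differed by more. That of Clamp was 1.25-fold, and 12.2% differed by more. None of the 7 differed by over 2-fold, as 0.317% of detected probe sets did. For probe sets of like signal (the 250 on each side) the SD of the difference was 0.19 around mof and 0.23 around Clamp. Over the 7 probe sets the differences stood at -0.04 at the median and ran from -0.29 to 0.40. With each of the 6 genes taken by its probe set of highest mean, the median was 0.0074.

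**Figure D2:**
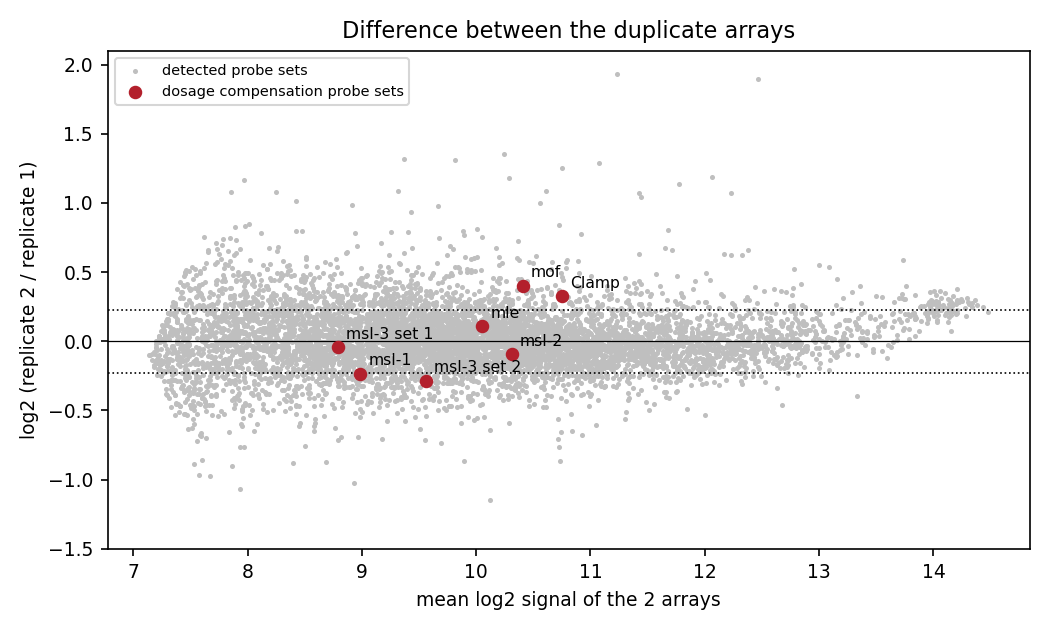
Log2 of replicate 2 over replicate 1 (vertical axis) against the mean log2 signal of both arrays (horizontal axis) for all 7262 detected probe sets (grey) and those of the complex (red), with dotted lines at 1 SD (0.23) on each side of 0. The probe sets of mof (0.40) and Clamp (0.33) lie above the upper line, and msl-1 (-0.23) and the second msl-3 set (-0.29) lie just below the lower one.

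Partners and regulators of the complex came from a list of 34 genes in 6 roles, of which 29 had a probe set of their own and 28 were detected, against 49.1% of all genes. The genes how, snf, Top2, MBD-R2 and egg were not measured. In what follows the first 3 measured genes of each role are given, with every gene that was not detected.

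All 5 measured regulators of msl-2 RNA were detected. Sxl, the female switch gene that is transcribed in both sexes but gives full-length protein in females alone, had 3 probe sets. The detected ones, both with the suffix _s, read 1067 and 990 (1632915_s_at, 1028 ± 54.8) and 955 and 834 (1634337_s_at, 894 ± 85.6). The third (1625620_a_at) read 0.957 and 1.14 and was not detected. These signals do not tell the male from the female splice form. Unr, the RNA-binding partner with which Sex-lethal blocks msl-2 translation, read 1188 and 1388 (1288 ± 142). Hrb27C, another RNA-binding repressor of msl-2 translation, read 8913 and 9006 (8960 ± 65.8).

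Of 8 measured chromatin factors tied to the male X, 7 were detected. JIL-1, the histone kinase enriched on the male X, read 208 and 238 (223 ± 20.7). The gene for heterochromatin protein HP1a read 4719 and 4581 (4650 ± 97.7). Su(var)3-7, a zinc-finger heterochromatin gene whose dose affects the shape of the male X, was the 1 gene of the whole list that was not detected, at 80.8 and 77.9 (79.4 ± 2.12).

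All 7 measured genes listed with the NSL complex, the other home of MOF, were detected, Chro and pzg among them. The scaffold gene nsl1 read 2068 and 2117 (2092 ± 35.1), dgt1 792 and 960 (876 ± 119), and Rcd1 1836 and 1909 (1872 ± 51.4). The log2 differences between arrays of the 7 genes ran from -0.30 for pzg to 0.28 for dgt1.

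The 3 genes for GA-repeat binding proteins and the NURF remodeller were all detected. Trl, which encodes GAGA factor, read 1474 and 1389 (1432 ± 60.2). The gene psq, for the BTB-domain protein Pipsqueak, read 1234 and 947 (1090 ± 203). E(bx), the large subunit of the NURF chromatin remodeller, read 937 and 781 (859 ± 110). Their log2 differences between arrays were -0.09 for Trl, -0.38 for psq and -0.26 for E(bx).

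Pof, the gene for the protein that coats chromosome 4, read 490 and 430 (460 ± 42.5). All 5 relatives of mof and msl-3 were detected. Tip60 read 1216 and 1319 (1267 ± 72.8), enok 597 and 698 (648 ± 71.8), and chm 306 and 309 (307 ± 1.97); all 3 encode acetyltransferases of the same MYST family as MOF. The family member CG1894, named after its values were seen, had 2 probe sets that disagreed. The first (1635886_s_at) read 7247 and 10496, and the second (1625237_at) read 37.9 and 56.9, below both limits. CG1894 thus counted as detected through the first alone, which carries the suffix _s.

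**Figure D3:**
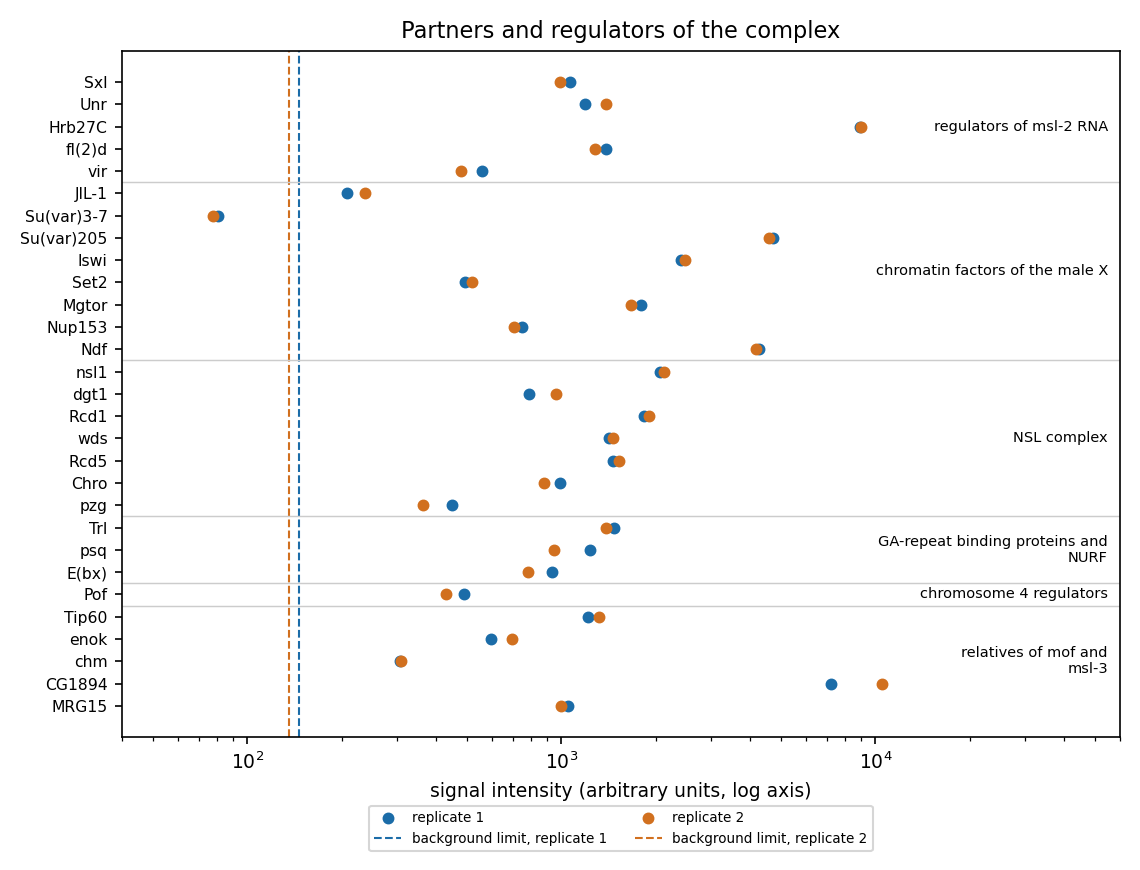
Signal intensity (log axis, arbitrary units) of the 29 measured partners and regulators on replicate 1 (blue) and replicate 2 (orange), each by its probe set with the highest mean, grouped by role, with the background limits as dashed lines. Su(var)3-7 alone lies to the left of the limits, and JIL-1 (208 and 238) is nearest to them among the detected genes.

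The X-linked genes are the targets of the complex, so they were compared with genes on the major autosome arms (2L, 2R, 3L and 3R). Arms came from a RefSeq gene table, and genes are not replicates, so these values describe the arrays and carry no test. Of 1869 X-linked genes 993 were detected (53.1%), and of 9946 genes on the autosome arms 4832 (48.6%). Each of the 4 autosome arms lay between 47.9% and 49.2%, below the X. Of the 65 genes on chromosome 4, 40 were detected (61.5%), a larger share than on the X.

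Among detected genes the median signal of the X was 795 on replicate 1 and 790 on replicate 2, and that of the autosome arms 926 and 932. The ratio of X to autosomes was thus 0.858 and 0.847. The autosome arms also differed among themselves, with medians of 855 and 881 on 3L and 918 and 932 on 3R. They were 948 and 966 on 2R, 980 and 960 on 2L, and 1646 and 1412 on chromosome 4. The ratio was 0.931 and 0.924 at the 10th percentile of detected genes, and 0.781 and 0.777 at the 90th. Both sets were cut at the same background limits, which can draw the ratios at low percentiles towards 1. Whether the ratio depends on the level was therefore not tested. Over all genes, detected or not, the order was the opposite, with medians of 204 and 211 for the X and 133 and 137 for the autosome arms. These autosome medians lay close to the background limits (146 and 136), so this order mostly restates the shares of genes detected. Gene copy number in these cells and differences in probe response between arms were not measured, and their part in these ratios was not tested.

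The difference between the arrays was also taken for X-linked and autosomal genes. The median log2 difference of detected genes was -0.013 on the X and 0.00075 on the autosome arms, with SDs of 0.21 and 0.22. On the X, 46.8% of detected genes were higher on replicate 2, and on the autosome arms 50.2%.

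**Figure D4:**
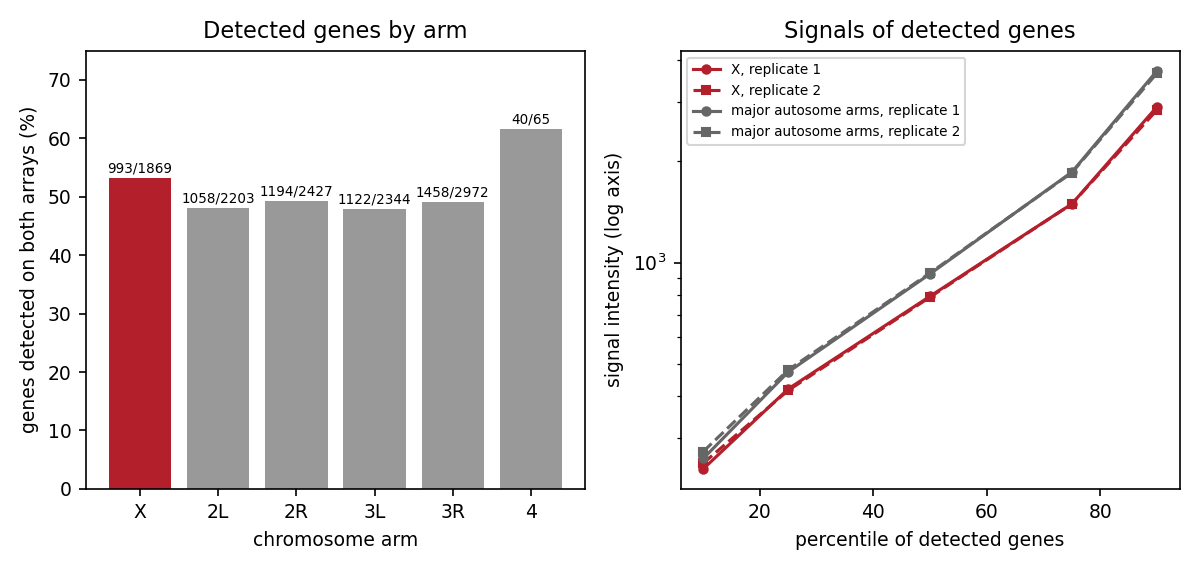
Left, share of measured genes detected on both arrays for each chromosome arm (percent, with counts above the bars and the X in red); right, signal intensity (log axis) at the 10th, 25th, 50th, 75th and 90th percentile of detected genes for the X (red) and the major autosome arms (grey), replicate 1 as solid and replicate 2 as dashed lines. Chromosome 4 has 61.5% of its genes detected, the X 53.1% and the 4 major autosome arms at most 49.2%. The X lines run below the autosome lines at each percentile drawn.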

How the data were processed

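Per the series design text, scanning used Affymetrix equipment and its GeneChip software. The authors deposited a linear signal intensity for each of 18952 probe sets on each array. The sources used here do not give how probes were combined, scaled or filtered. The values were used as deposited (medians 70.8 and 73.8), and the number of arrays limits the precision.

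The platform annotation named 13647 probe sets by 1 gene and 402 by several, which were left out. Symbols and chromosome arms came from the RefSeq table of release 6, which held 11894 of the 11983 genes. A gene's level is that of its probe set with the highest mean. Signals under 1 were raised to 1 before log2. The computations used Python 3.11.15, numpy 2.4.6 and pandas 2.3.3, and were tested on simulated data.

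With 1 group there is no test between groups. Other limits, single arrays and scalings were tried. The genes, lists and limit were chosen with earlier results of these data known. The named genes were all members, the first 3 measured genes of each role or marker list, and every undetected gene of a role or blood cell marker. No sequence is printed, and likeness to other genes was not computed, because 2 arrays of 1 group hold no pattern.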

Additional observations from a re-analysis of the deposited data

How the results depend on the processing

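All 6 measured genes of the complex were detected under each of the other settings: the 90th and 99th percentile limits, the highest of 50 control probe sets that carry protein accessions, the demand that every probe set pass, and each array alone. With a single array left out the count of partners and regulators was 28 both times, and the count of detected X-linked genes was 1002 to 1020. Partners and regulators numbered 27 with the 99th percentile limit, which JIL-1 did not pass, and 26 when every probe set had to pass. X-linked genes detected ran from 869 (99th percentile limit) to 1123 (control probe sets), and the excess of the X over the autosome arms from 2.97 to 5.20 percentage points. The ratio of median signals of detected genes, X over autosomes, ran from 0.844 to 0.882. The median log2 difference of the 7 probe sets was -0.10 with each array divided by its median, -0.06 after quantile normalization and -0.04 with a floor of 16, and each probe set kept its direction. The SD of the difference over all probe sets, with no filter on detection, was 0.89 in place of 0.23, since undetected probe sets enter it. No paired analysis was possible because there is 1 group. The duplicates limit every statement on spread.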

Other observations

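The measured genes nearest to the roX genes on the X, 5 on each side with ec added for roX1, were listed after the files were seen. Around roX1, 6 of 11 were detected, and around roX2, 7 of 10, where 53.1% of X-linked genes were. Next to roX1 on one side stood yin (2482 ± 303), CG2930 (2976 ± 340) and VhaAC39-1 (4760 ± 105), a subunit gene of the vacuolar proton pump, all detected. On its other side CG2901 (46.7 ± 12.5), fd3F (71.4 ± 11.8) and Crg-1 (37.4 ± 36.3) were not detected. The genes closest to roX2 were CG11695 (258 ± 61.6) and the kinesin-like gene nod (422 ± 22.1), both detected.

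Trl also shares 2 probe sets with CG42507, which were left out of its values. They read 2493 ± 82.3, above the limit on both arrays, and 125 ± 39.8, which was not.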
